A study of Mus musculus with 2 samples.

Results

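The 38 genes described here encode collagens and other proteins of the extracellular matrix, with 2 enzymes that crosslink collagen, and they were taken as a list of symbols from the 32285 genes counted. The list holds 7 chains of fibril-forming collagens, 3 fibril-associated collagens, 3 chains of beaded-filament collagen VI, 2 anchoring or short-chain collagens and 13 basement membrane genes. It also holds the glycoproteins Fn1 and Fbn1, the 3 matricellular genes Sparc, Tnc and Postn, the crosslinking enzymes Lox and Loxl2, and 3 small leucine-rich proteoglycans. Gene expression was measured by droplet scRNA-seq in tumors that grew from RM-1 cells, a murine prostate cancer (PCa) line, injected into the prostate of C57BL/6 mice. The control tumor came from 1 mouse given vehicle and the ENZ tumor from 1 mouse given enzalutamide (ENZ), an androgen receptor inhibitor. Both samples are labelled wild type, and neither age nor time of treatment is given in the sample labels. Immune cells were enriched during sorting, so no share of a cell class was read. The files held 170830346 UMIs (unique molecular identifiers, each standing for 1 counted RNA molecule) for the control tumor and 162030149 for the ENZ tumor. With 1 library for each condition no difference could be tested against replicates, and the 95% intervals given below cover counting error only.

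Cells were placed in classes by fixed marker rules. Cancer cells had at least 8000 UMIs, at most 20% mitochondrial UMIs, at most 1 UMI of Ptprc and at least 5 of Cacna2d1, Rbfox2, Kif21a and Rhox5 together, which gave 3738 control and 4207 ENZ cells. Fibroblasts had at least 10 UMIs of Dcn, Lum and Dpt together, which gave 83 control and 92 ENZ cells. Of these, 69 and 83 also met the rule for cancer cells and were counted as fibroblasts, and 25 cells of the ENZ set carried almost no Lum or Col1a2. Immune cells had at least 2 UMIs of Ptprc, which gave 4657 control and 3402 ENZ cells. Cancer cells were also cut into terciles by the share of Krt8, Krt18 and Krt19 in their UMIs. The median depth was 21893 UMIs in control and 22745 in ENZ cancer cells, 21302 and 20218 in fibroblasts, and 4972 and 4979 in immune cells. Among barcodes with at least 500 UMIs, 43 occurred in both libraries. Dcn and Lum were used to choose fibroblasts, so their level there is no finding.

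Fibrillar collagens assemble into the fibers of connective tissue, and collagen I is made of 2 chains encoded by Col1a1 and Col1a2. Basement membranes are sheets under epithelia and around vessels, built from collagen IV, laminins, nidogens and perlecan, the product of Hspg2. In solid tumors, fibroblasts, mural cells and endothelial cells are well known sources of these proteins, and carcinoma cells can make part of them as well.

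Col4a1 and Col4a2, the chains of the most common collagen IV trimer, are given with their promoters because they lie head to head on mouse chromosome 8 and had similar ratios in the comparisons below. Per the RefSeq sequences on GRCm38.p6, their start sites are 21 bases apart on opposite strands and the windows, from 250 bases before to 50 after each start, share 78 bases. The windows are chr8:11312777-11313076 on the minus strand for Col4a1 and chr8:11312555-11312854 on the plus strand for Col4a2, each read 5′ to 3′ on its own strand. Capitals mark matches to CCAAT or GGGCGG on either strand, so that ATTGG and CCGCCC are the same motifs read on the other strand.
Col4a1: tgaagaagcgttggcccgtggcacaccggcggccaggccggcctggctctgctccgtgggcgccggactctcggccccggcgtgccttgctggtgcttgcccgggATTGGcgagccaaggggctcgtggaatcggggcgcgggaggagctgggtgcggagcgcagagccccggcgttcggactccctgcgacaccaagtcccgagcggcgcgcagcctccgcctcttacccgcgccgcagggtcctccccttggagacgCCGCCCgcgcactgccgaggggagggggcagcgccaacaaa
Col4a2: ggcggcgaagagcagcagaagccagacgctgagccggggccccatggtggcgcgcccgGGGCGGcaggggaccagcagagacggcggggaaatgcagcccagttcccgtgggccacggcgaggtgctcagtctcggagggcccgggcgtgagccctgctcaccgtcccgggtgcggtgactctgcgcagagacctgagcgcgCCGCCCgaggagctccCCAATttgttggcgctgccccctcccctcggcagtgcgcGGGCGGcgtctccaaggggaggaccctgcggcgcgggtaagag

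One GGGCGG match lies in the shared stretch and is read from both windows. The table held 29 windows of 25 members. The motif CCAAT was found in 11 of the 29 windows and in 37.4% of all 32851 windows. The motif GGGCGG was found in 20 of the 29 windows, of 18 members, and in 35.7% of all windows. TATAAA was found in 4 of the 29, of Col3a1, Postn and Tnc, and in 13.6% of all windows. These matches describe letters in a window and not bound sites.

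Fibroblasts held the highest levels of most members in both tumors. The 38 genes together took 46355 CPM (UMIs of a gene among all UMIs of the class, scaled to 1000000) in control and 49506 CPM in ENZ fibroblasts, against 3303 and 3574 CPM in cancer cells and 1329 and 1421 CPM in immune cells. Col3a1, the collagen III chain, stood at 8511 CPM in control and 8840 CPM in ENZ fibroblasts, and at 372 and 377 CPM in cancer cells. Col1a1 stood at 6515 and 7161 CPM in fibroblasts, and at 170 and 138 CPM in cancer cells. Its partner Col1a2 stood at 7002 and 7950 CPM in fibroblasts, but at 19.0 and 7.86 CPM in cancer cells. Thus the 2 chains of collagen I were at similar levels in fibroblasts, whereas cancer cells carried mostly Col1a1. A 3′ library counts each molecule once, so these levels are not divided by gene length.

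In control cells, 31 of 37 members with at least 50 UMIs over both classes were at least 1.5-fold higher in fibroblasts than in cancer cells with an interval above 1, where 14.5% of all 15197 genes were. For ENZ cells the count was 32 of 36, where 14.9% of all genes were. Without Dcn and Lum, which chose the fibroblasts, the counts were 29 of 35 and 30 of 34. In the 47 control and 58 ENZ fibroblasts with at most 1 UMI of Rhox5, a homeobox gene high in RM-1 cells, against cancer cells with at least 5, limits set after the data were seen, the counts over all members were 33 of 36, where 16.9% of all genes were, and 32 of 36, where 17.2% were. The counts under the limits on Rhox5 include Dcn and Lum, whose direction was set by the fibroblast rule. The median log2 ratio of the members without Dcn and Lum, over all cells of each class, was 3.40 in control and 3.69 in ENZ cells, beside -0.10 and -0.14 over all genes. Lox, which oxidizes lysines so that collagen chains can crosslink, stood at 385 CPM in control and 411 CPM in ENZ fibroblasts, with 39 and 36 UMIs in all cancer cells of each library (0.397 and 0.322 CPM). Loxl2, an enzyme of the same family, was 2.35-fold and 1.97-fold higher in fibroblasts, at 261 and 275 CPM against 111 and 140 CPM. Postn, a matricellular protein typical of activated fibroblasts, stood at 1395 and 1429 CPM against 3.55 and 2.21 CPM in cancer cells. Bgn, a small proteoglycan that binds collagen, stood at 1898 and 1921 CPM against 9.98 and 5.56 CPM.

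Collagen V and collagen VI chains, of which the first is found within collagen I fibrils, showed how chains of one assembly can differ between classes. Col5a2 stood at 1347 CPM in control and 1620 CPM in ENZ fibroblasts and at 7.22 and 2.62 CPM in cancer cells. Col5a1 stood at 620 and 713 CPM in fibroblasts and at 58.9 and 76.2 CPM in cancer cells, and Col5a3 at 282 and 435 CPM and at 57.0 and 105 CPM. Cancer cells thus held the Col5a1 and Col5a3 chains well above Col5a2, while fibroblasts held Col5a2 above the others. Col6a1, Col6a2 and Col6a3 were nearer to each other in fibroblasts, at 612, 490 and 676 CPM in control and at 740, 578 and 711 CPM in ENZ cells, than in cancer cells, at 80.3, 23.4 and 42.7 CPM in control and at 95.5, 24.4 and 47.8 CPM in ENZ cells. Sparc was the most abundant member in cancer cells, at 723 and 642 CPM, and was 10.2-fold and 11.2-fold higher in fibroblasts. Fn1 was 6.55-fold and 6.16-fold higher in fibroblasts.

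Basement membrane genes lay closer together in both classes. Of 12 with at least 50 UMIs, 7 in control and 9 in ENZ cells were at least 1.5-fold higher in fibroblasts and 2 were lower in either library. They summed to 1717 CPM in control and 2438 CPM in ENZ fibroblasts, and to 1106 and 1383 CPM in cancer cells. Their median log2 ratio of fibroblasts over cancer cells was 0.71 in control and 0.96 in ENZ cells, against 5.26 and 5.12 for the fibril-forming collagens. Lama5, a laminin chain of epithelial basement membranes, stood at 53.9 CPM in control and 55.4 CPM in ENZ fibroblasts, and at 98.0 and 116 CPM in cancer cells. Col18a1, the precursor of endostatin, stood at 65.4 and 71.7 CPM in fibroblasts, and at 98.5 and 120 CPM in cancer cells. These 2 genes were the only members at least 1.5-fold lower in fibroblasts with an interval below 1, in both libraries, where 10.6% of all genes in control and 12.5% in ENZ cells were. With the limits on Rhox5, Col7a1 joined them in both libraries, where 21.3% and 23.8% of all genes were lower. Nid1, which links laminin to collagen IV, was nearer in level, at 426 and 548 CPM in fibroblasts and 327 and 419 CPM in cancer cells. Lama1 had 3 UMIs in the cancer cells of either library, and Col11a1 had 7 and 3.

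**Figure D1:**
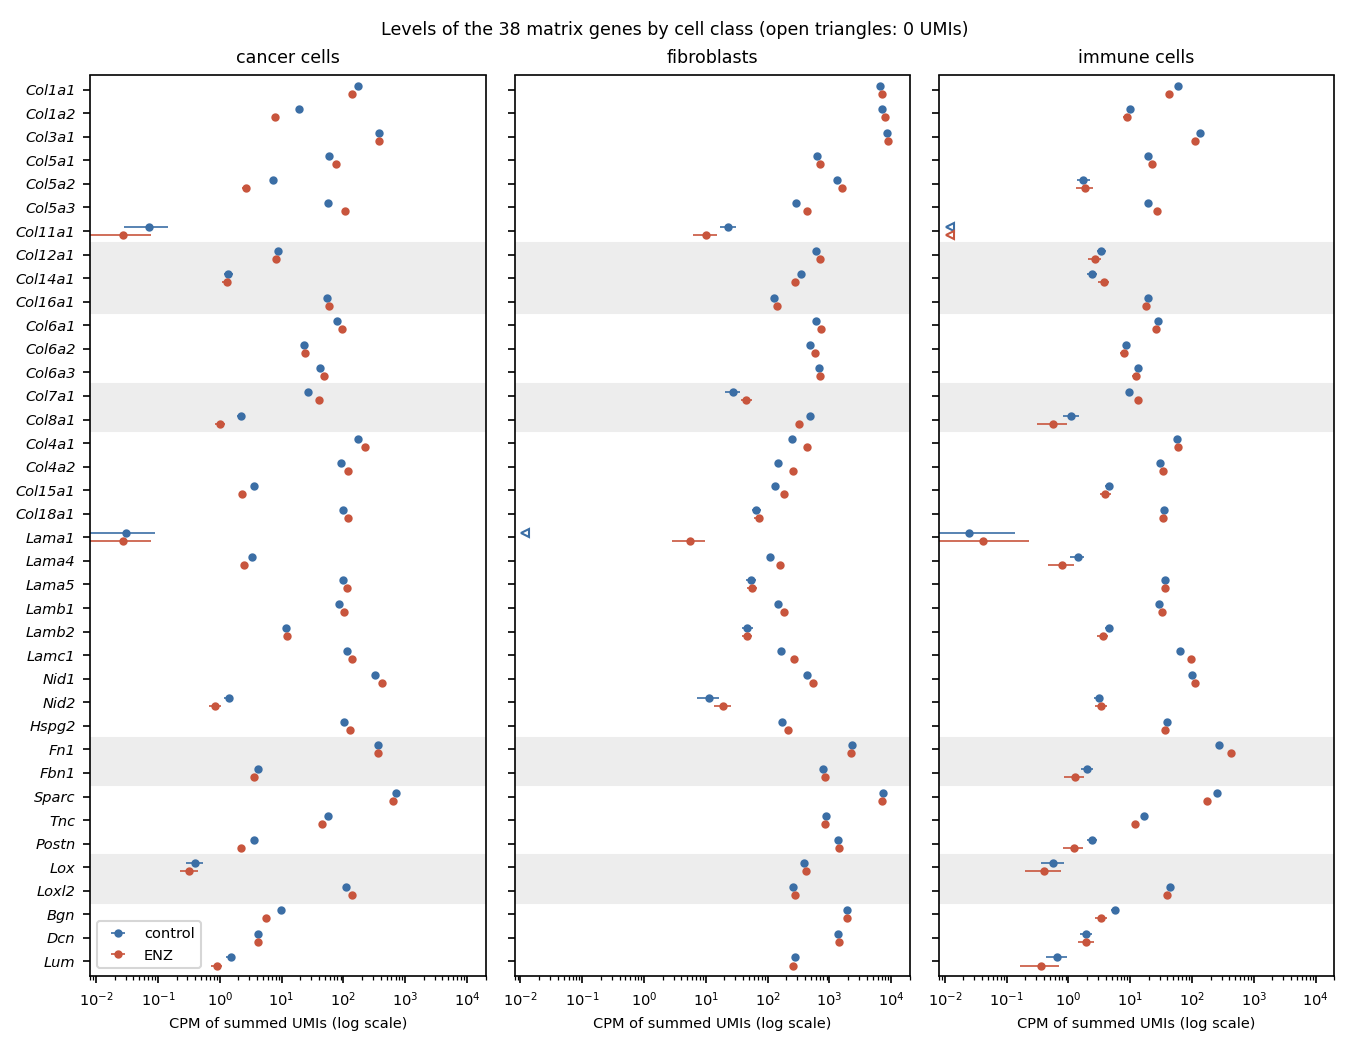
CPM of summed UMIs on a log axis for each of the 38 genes (rows, shaded by role) in cancer cells, fibroblasts and immune cells of the control (blue) and ENZ (red) tumor, with bars for 95% Poisson intervals and open triangles for 0 UMIs. Fibril-forming collagens lie farther to the right in fibroblasts than elsewhere, while Lama5 and Col18a1 lie farther to the right in cancer cells.

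The marker check bore on which cells these levels describe. Of 83 control and 92 ENZ fibroblasts, 34 and 25 held at least 5 UMIs of Rhox5, and 47 and 58 held at most 1. These 2 sets of fibroblasts differed in their matrix genes. The 25 ENZ cells with at least 5 Rhox5 UMIs held 42.2% of the UMIs of all ENZ fibroblasts. They carried 251 UMIs of Dpt but only 60 of Dcn, 2 of Lum, 2 of Col1a2 and 1 of Postn, so the marker sum that chose them was mostly Dpt and the label of fibroblasts was not borne out by the other markers. The 34 control cells with at least 5 Rhox5 UMIs carried 311 UMIs of Dpt, 584 of Dcn, 106 of Lum and 4226 of Col1a2, and held 59.8% of the UMIs of all control fibroblasts. Whether these were droplets with more than 1 cell was not tested. Fibroblasts with at most 1 Rhox5 UMI carried 11916 CPM of Col1a1 and 13022 CPM of Col1a2 in the control tumor, and 11927 and 13973 CPM in the ENZ tumor. Lama5 had 5 UMIs in the control and 3 UMIs in the ENZ fibroblasts of this set (6.03 and 2.75 CPM), against 97.6 and 115 CPM in cancer cells with at least 5 Rhox5 UMIs, and the ratios were 0.0618 (0.0200 to 0.144) and 0.0238 (0.00491 to 0.0696). Col7a1 had 2 and 17 UMIs in this set (2.41 and 15.6 CPM), against 26.6 and 40.8 CPM in those cancer cells. Col18a1 stood at 43.4 and 38.5 CPM against 96.0 and 119 CPM. Fibroblasts with at least 5 Rhox5 UMIs held 93.2% of the Lama5 UMIs of all fibroblasts in control and 95.9% in ENZ, and 94.9% and 78.0% of the Col7a1 UMIs.

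Summed cancer cell markers were 1813 CPM in control and 1625 CPM in ENZ fibroblasts, against 3017 and 3011 CPM in cancer cells. Among cancer cells, all 8 mural and all 8 endothelial markers had UMIs, with sums of 86.4 and 78.0 CPM in control and 69.3 and 68.1 CPM in ENZ cells. Acta2, a smooth muscle actin, led the mural list and Cdh5, an endothelial cadherin, led the endothelial list in both libraries.

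A small set of cells in the keratin-low tercile held these markers. In that tercile, 36 control and 33 ENZ cells had at most 1 UMI of Rhox5, and 21 and 15 of them had at least 3 UMIs of Kdr, Emcn, Cldn5, Kcnj8, Abcc9 and Myh11 together, which are markers of vessels. The 36 control cells held 90.7% of the Kdr UMIs of their tercile. The 36 and 33 cells carried Rgs5, a pericyte gene, at 1236 CPM (control) and 1373 CPM (ENZ). They also carried Col4a1 at 2179 CPM in control and 2486 CPM in ENZ cells, and Sparc, a collagen-binding protein, at 4229 and 3737 CPM. Their share of the UMIs of the tercile was 65.5% in control and 54.6% in ENZ for Col1a2, 75.2% and 70.6% for Col5a2, 83.8% and 76.1% for the laminin chain Lama4, and 81.5% and 82.9% for Nid2. Their share was 4.95% and 2.91% for Col3a1, 3.29% and 2.52% for Fn1, and 2.65% and 2.92% for Nid1. The 21 and 15 cells with vessel markers alone held 79.1% and 73.5% of the Lama4 UMIs and 79.8% and 82.9% of the Nid2 UMIs, but 30.3% and 27.7% of the Col1a2 UMIs and 28.3% and 48.3% of the Col5a2 UMIs. Thus the cancer rule took in cells with vessel markers, which held most of the signal of Lama4 and Nid2, while for Col1a2 a large part lay in other Rhox5-poor cells.

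The same division was seen across all cancer cells. The 1% of cells with most UMIs of a gene, 37 control and 42 ENZ cells, held 78.9% and 47.7% of the Col1a2 UMIs, 91.7% and 73.0% of the Col5a2 UMIs, and 83.7% and 72.9% of the Postn UMIs. In contrast, they held 6.25% and 4.69% of the Col3a1 UMIs, 13.8% and 9.89% of the Col1a1 UMIs, and 5.70% and 4.47% of the Nid1 UMIs. Rhox5 itself gave 5.48% and 4.96%. Genes with few UMIs reach a higher share however they are spread, and Col14a1, with 136 UMIs in control cells, gave 41.9% where Nid2, with 137, gave 85.4%. Thus Col3a1, Fn1, Nid1, Loxl2, Lama5 and Sparc were spread over cancer cells about as Rhox5 was, all of them between 4.19% and 6.76%.

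**Figure D2:**
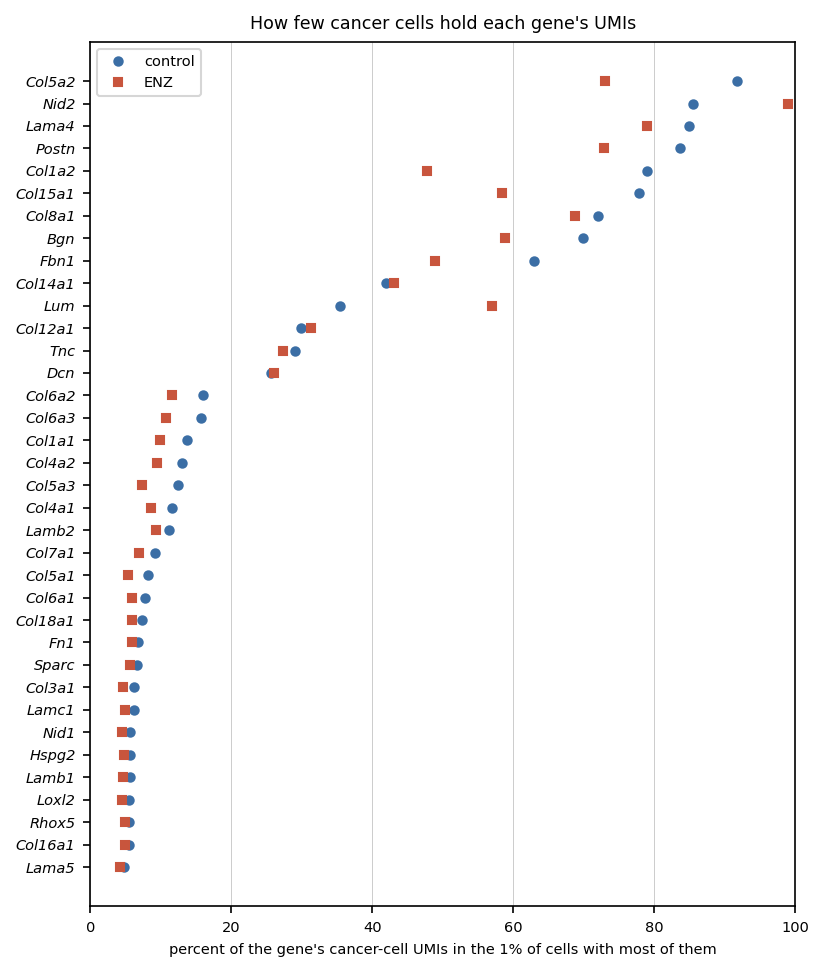
For each member with enough UMIs, and for Rhox5, the percent of its cancer-cell UMIs found in the 1% of cells that held most of them, in the control (circles) and ENZ (squares) library. Col5a2, Nid2, Lama4, Postn and Col1a2 lie at the top of the control order, and Lama5, Col16a1, Loxl2 and Nid1 lie near the 5.48% of Rhox5.

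Keratin-low cancer cells carried more matrix RNA than keratin-high cells in both tumors. The cuts lay at 363 and 963 CPM of Krt8, Krt18 and Krt19 together and were the same for both libraries, which gave 1475 control and 1174 ENZ cells in the low tercile and 1054 and 1594 in the high tercile. Col1a1 stood at 323 CPM in the control low tercile, 154 CPM in the middle tercile and 63.6 CPM in the high tercile. The ENZ values were 321, 152 and 50.3 CPM. The level of Col1a1 therefore ran down with the keratin share in either library, with a ratio of low over high of 5.08 (4.85 to 5.32) in control and 6.37 (6.09 to 6.67) in ENZ cells.

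In the control library, 26 of 35 members with at least 50 UMIs were at least 1.5-fold higher in the keratin-low tercile, where 20.2% of all 14134 genes were, and 0 were lower by that much, where 6.6% of all genes were. The ENZ library gave 25 of 35 higher, where 14.7% of all 14190 genes were, and 0 lower, where 7.38% were. Without Dcn and Lum, whose high cells the cancer rule left out, the counts were 24 of 33 and 23 of 33. The median log2 ratio was 1.19 in control and 1.63 in ENZ cells over the members, and 0.93 and 1.03 without Dcn and Lum, beside 0.17 and 0.08 over all genes. Fn1, the glycoprotein that cells bind through integrins, stood at 542 CPM in the low and 199 CPM in the high tercile of the control library, and at 645 and 208 CPM in the ENZ library (ratios 2.73 and 3.09). Col12a1, a collagen on the surface of fibrils, stood at 18.5 and 2.59 CPM in control and at 23.6 and 2.15 CPM in ENZ cells. Tnc, a matricellular protein of remodeled tissue, stood at 84.5 and 32.8 CPM in control and at 94.5 and 23.9 CPM in ENZ cells.

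Collagen VI, which forms beaded filaments, was higher in the low tercile for all 3 chains, with ratios of 1.89 for Col6a1, 2.62 for Col6a2 and 3.61 for Col6a3 in control cells and 1.98, 3.14 and 3.19 in ENZ cells. The collagen V chains lay far apart, with 1.86 for Col5a1 and 29.8 for Col5a2 in control cells and 1.90 and 10.5 in ENZ cells. Among cells with at least 5 Rhox5 UMIs, Col5a2 had ratios of 3.47 (2.21 to 5.59) and 2.46 (1.61 to 3.78) and Col5a1 of 1.71 (1.60 to 1.83) and 1.89 (1.79 to 1.996), so the intervals of the 2 chains overlapped in the ENZ library. The collagen IV chains lay close together, with 1.85 for Col4a1 and 1.70 for Col4a2 in control cells and 2.03 and 1.92 in ENZ cells. Col3a1 was 2.28-fold and 2.04-fold higher, and Sparc was 1.77-fold and 1.88-fold higher. Most basement membrane genes with wide spread moved less, with ratios of 1.27 and 1.31 for Nid1, 1.32 and 1.27 for Hspg2, and 1.21 and 1.14 for Lama5. The laminin chain Lamb2 had ratios of 1.59 and 1.44, past the limit in control cells only, though the libraries were not tested against each other. Members in the other direction were Col18a1, at 91.4 CPM in the low and 104 CPM in the high tercile of the control library (ratio 0.879) and at 0.772 in the ENZ library, and Col5a3, a collagen V chain, with ratios of 0.677 and 0.775. Col7a1, the anchoring fibril collagen, had a ratio of 0.761 in control cells, and its interval in ENZ cells held 1.

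The keratin-low tercile also held the cells with vessel markers. Mural markers summed to 182 CPM in the low tercile of either library and to 36.1 and 26.0 CPM in the high tercile, and endothelial markers to 135 and 129 CPM against 48.6 and 50.2 CPM. With cancer cells limited to those with at least 5 Rhox5 UMIs, 22 of 34 members were higher in control cells, where 16.5% of all genes were, and 24 of 34 in ENZ cells, where 11.8% were. The median log2 ratio of the members was then 0.89 and 0.92. Dcn and Lum were not taken out of the counts and medians of this paragraph. Col1a1 kept ratios of 4.58 and 6.10, and Fn1 of 2.66 and 3.05. Col1a2 went from 10.1 to 2.38 in control and from 4.59 to 2.06 in ENZ cells, and Bgn from 15.3 to 4.88 and from 9.58 to 3.31. Col4a1 went from 1.85 to 1.43 in control and from 2.03 to 1.62 in ENZ cells, and Col12a1 from 7.14 to 4.96 and from 11.0 to 7.84. A further set also left out cells with any UMI of the 6 vessel markers or with at least 3 UMIs of Dcn, Lum and Dpt together. The effects of these limits were not separated. In this set Col1a2 had a ratio of 0.832 with an interval from 0.628 to 1.10 in control cells and 2.45 in ENZ cells. Col1a1 stayed at 4.56 and 6.01. In that set 16 of 29 members were higher in control cells, where 14.2% of all genes were, and 22 of 33 in ENZ cells, where 11.0% were.

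The terciles also differed in depth, with a median of 16605 UMIs in the low and 29121 in the high tercile of the control library. With each cell thinned to 8000 UMIs before its keratin share was taken, 23 of 32 members were higher in control cells, where 16.8% of all genes were, and 21 of 31 in ENZ cells, where 12.3% were. Dcn and Lum were not taken out of the thinned counts.

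**Figure D3:**
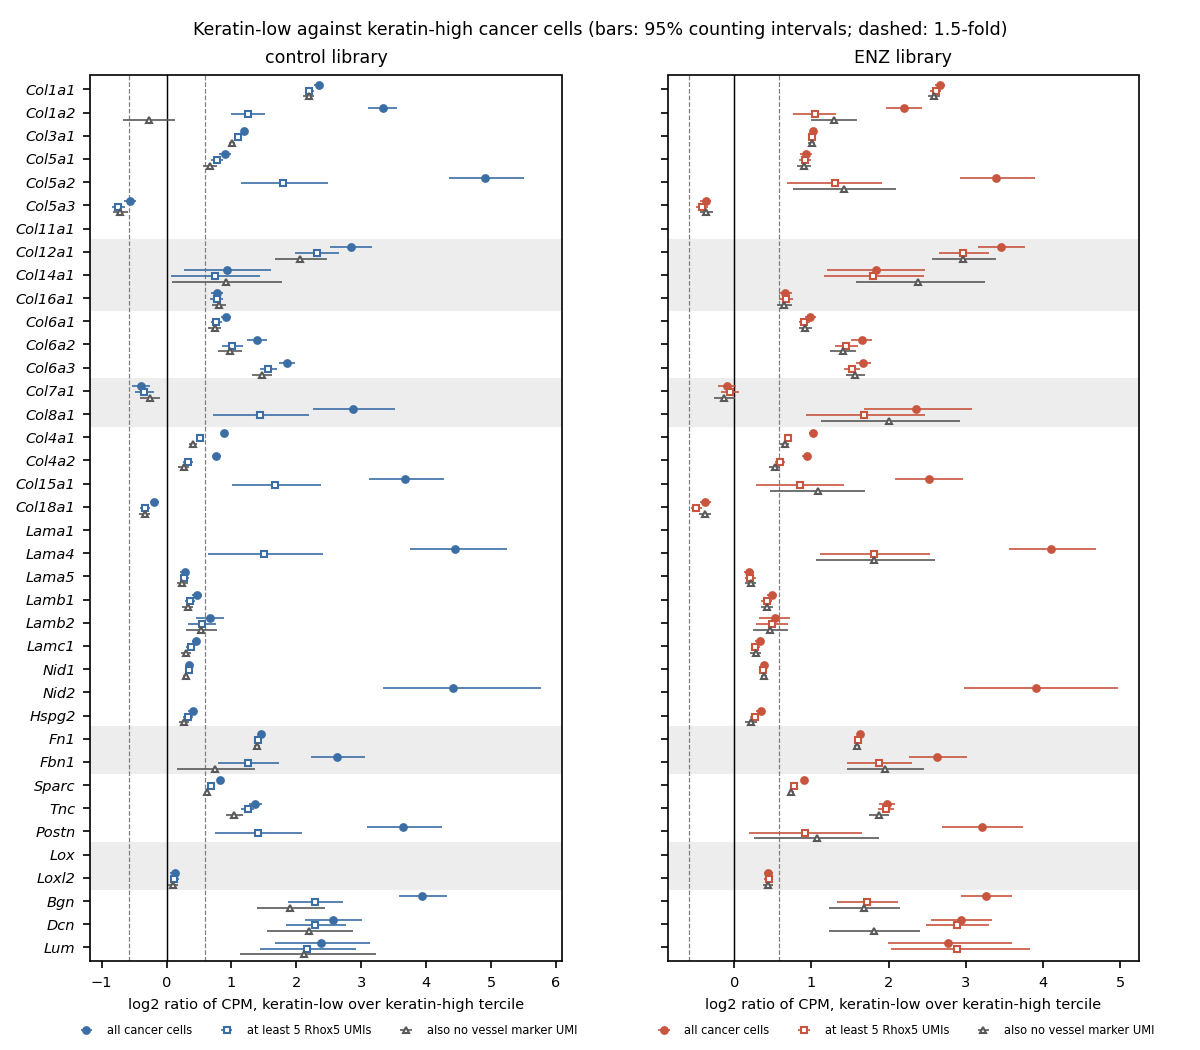
Log2 ratios of CPM in the keratin-low over the keratin-high tercile for each member with at least 50 UMIs, in the control and ENZ library, for all cancer cells (filled circles), for those with at least 5 Rhox5 UMIs (open squares) and for those also without vessel marker UMIs (triangles), with bars for 95% counting intervals and dashed lines at 1.5-fold. The triangles also leave out cells with at least 3 UMIs of Dcn, Lum and Dpt together. Col1a1, Col3a1 and Fn1 kept their place in all 3 sets, and Col1a2, Col5a2, Lama4, Postn and Bgn lay nearer to 0 once Rhox5-poor cells were left out.

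In ENZ against control cancer cells, the widely spread basement membrane genes were moderately higher. Most members past the 1.5-fold limit were lower, but this did not hold once Rhox5-poor cells were left out. Of 36 members with at least 50 UMIs, 2 were at least 1.5-fold higher, where 1.74% of all 16625 genes were, and 8 were lower by that much, where 5.41% were. Col5a3 stood at 57.0 CPM in control and 105 CPM in ENZ cells, a ratio of 1.83 (1.78 to 1.89). Col7a1 stood at 26.5 and 40.7 CPM, a ratio of 1.54 (1.46 to 1.61). Both passed the limit under all 18 alternative settings that could be computed for them. Some of these, such as other depth limits for fibroblasts and immune cells, leave cancer cells unchanged.

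The 8 lower members were Col1a2, Col5a2, Col8a1, Col15a1, Nid2, Postn, Bgn and Lum, each under 20 CPM in either library. Col1a2 went from 19.0 to 7.86 CPM (ratio 0.413, 0.381 to 0.448) and Col5a2, a collagen V chain, from 7.22 to 2.62 CPM (ratio 0.364). Of these 8, all but Lum had most of their keratin-low UMIs in the Rhox5-poor cells of the control tumor. In cancer cells with at least 5 Rhox5 UMIs, Col1a2 was at 7.46 CPM in control and 5.62 CPM in ENZ cells (ratio 0.753), and only Lum remained at least 1.5-fold lower, where 5.02% of all genes were. Col5a3 and Col7a1 were still higher, where 1.88% were. When cells with any vessel marker UMI or at least 3 UMIs of Dcn, Lum and Dpt together were also left out, the Col1a2 ratio was 1.24 (1.08 to 1.42), on the other side of 1.

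Col4a1 went from 171 CPM in the control to 221 CPM in the ENZ cancer cells, with a ratio of 1.29 (1.27 to 1.32). Col4a2 stood at 92.1 and 120 CPM, with a ratio of 1.30 (1.27 to 1.34), so the pair printed above differed by almost the same factor. Nid1 went from 327 to 419 CPM (ratio 1.28), Hspg2 from 101 to 128 CPM (ratio 1.27), and the laminin chain genes Lama5, Lamb1 and Lamc1 had ratios of 1.18, 1.23 and 1.20. The interval lay above 1 for 8 of 12 basement membrane genes, where 29.7% of all genes had such an interval. It lay below 1 for 3 of the 12, among them Nid2 and Col15a1, where it did for 4701 of 16625 genes. The median log2 ratio of the 12 was 0.28 against 0.00 over all genes. Loxl2 was 1.25-fold higher, at 140 CPM against 111 CPM.

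Other abundant members lay near 1 or below it. Col3a1 had a ratio of 1.01 (0.998 to 1.03) and Fn1 of 1.02. Col1a1 was at 0.811 (0.793 to 0.829), Tnc at 0.793 and Sparc at 0.888, at 723 CPM in control and 642 CPM in ENZ cells. The ENZ library held fewer keratin-low cells, and within the terciles Col1a1 had ratios of 0.993 in the low, 0.990 in the middle and 0.791 in the high tercile. Tnc had ratios of 1.12, 0.765 and 0.730 in the same order, so its direction was not the same in the low tercile. Lox had 36 and 39 UMIs in ENZ and control cells, and its interval of 0.502 to 1.31 allowed a difference in either direction.

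Within terciles, Col4a1 had ratios of 1.43 in the low, 1.42 in the middle and 1.30 in the high tercile, and Nid1 had 1.33, 1.31 and 1.30. Of 32 members that could be compared in each tercile, 17 had an interval above 1 in all 3, which is 53.1%, beside 17.6% of 13408 genes. These 17 held 8 of 10 basement membrane genes, Col3a1, Col5a1, Col5a3, Col6a1, Col6a3, Col7a1, Col16a1, Fn1 and Loxl2. Sparc was the single member with an interval below 1 in all 3 terciles, which is 3.13% of the members beside 12.3% of all genes. In the low tercile, 2 of 35 members were at least 1.5-fold higher and 4 lower, beside 242 and 607 of 13783 genes. The median log2 ratio of the members in the low tercile was 0.21, beside -0.01 over all genes. It was 0.43, beside 0.01, in its cells with at least 5 Rhox5 UMIs, no vessel marker UMI and under 3 UMIs of Dcn, Lum and Dpt together. With 1 mouse per condition, a difference between mice, between libraries and by treatment cannot be told apart.

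**Figure D4:**
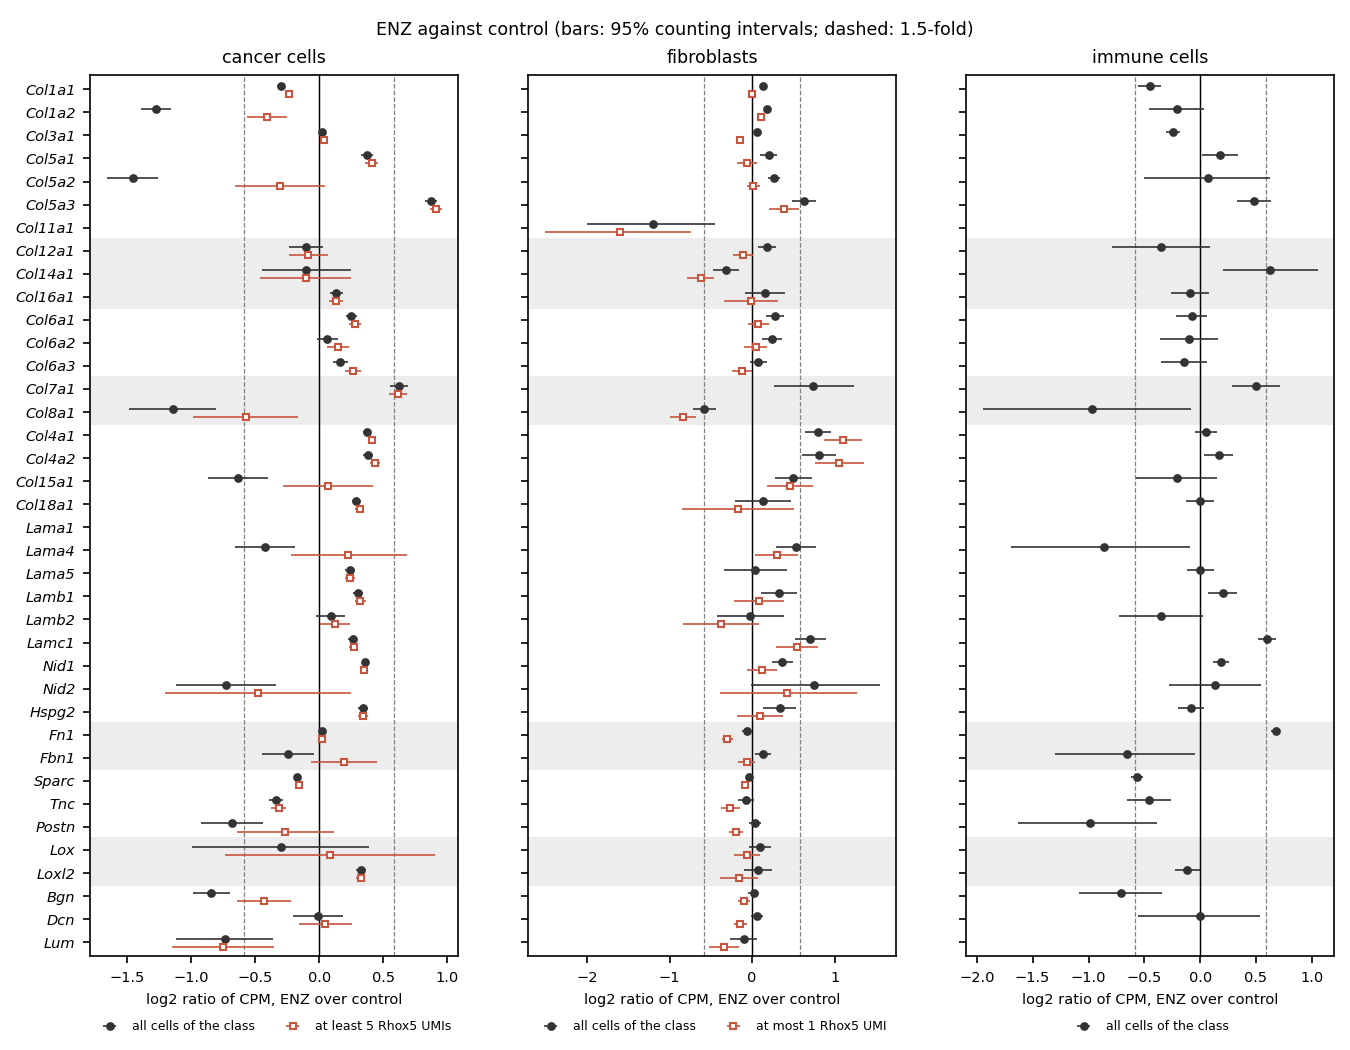
Log2 ratios of CPM in ENZ over control for each member with at least 50 UMIs in cancer cells, fibroblasts and immune cells (filled circles), and in cancer cells with at least 5 and fibroblasts with at most 1 Rhox5 UMI (open squares), with bars for 95% counting intervals and dashed lines at 1.5-fold. Col4a1 and Col4a2 lie to the right of 0 in cancer cells and farther right in fibroblasts, and Col1a2 and Col5a2 lie left of the dashed line in cancer cells only before Rhox5-poor cells were left out.

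In ENZ against control fibroblasts, both collagen IV chains were higher, while the main fibrillar collagens differed little. Col4a1 stood at 246 CPM in control and 427 CPM in ENZ fibroblasts, a ratio of 1.73 (1.56 to 1.93), and Col4a2 at 146 and 256 CPM, a ratio of 1.75 (1.52 to 2.02). The laminin chain Lamc1 went from 164 to 268 CPM (ratio 1.63), Col5a3 from 282 to 435 CPM (ratio 1.54), and Col7a1 from 27.2 to 45.4 CPM on 59 and 100 UMIs (ratio 1.67). These 5 of 37 members were at least 1.5-fold higher, where 4.75% of all 8709 genes were. Col11a1, a minor fibrillar collagen, was the single member lower by that much, on 50 UMIs in control and 22 in ENZ cells, where 4.28% of all genes were. Col1a1 had a ratio of 1.10, Col1a2 of 1.14, Col3a1 of 1.04 and Fn1 of 0.957. Fbn1, the fibrillin of elastic microfibrils, had a ratio of 1.10, Postn of 1.02 and Lox of 1.07, and Tnc stood at 877 and 833 CPM.

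Rhox5 stood at 477 CPM in control and 317 CPM in ENZ fibroblasts, and endothelial markers summed to 18.0 and 82.2 CPM. Mural markers went the other way, with 461 and 254 CPM, led by Acta2 at 397 and 153 CPM. Immune cell markers summed to 163 CPM in control and 49.0 CPM in ENZ fibroblasts, and to 101 and 48.9 CPM in cancer cells. In the 47 control and 58 ENZ fibroblasts with at most 1 Rhox5 UMI, Col4a1 went from 246 to 526 CPM (ratio 2.14, 1.82 to 2.52) and Col4a2 from 155 to 323 CPM (ratio 2.08). Of 35 members, 2 were then higher by the limit, where 6.94% of all genes were, and 3 were lower, where 6.78% were. The median log2 ratio of the members was 0.14 over all fibroblasts and -0.060 in this set. Lamc1 was at 1.46 and Col5a3 at 1.31, inside the limit, and Col7a1 had only 2 and 17 UMIs. Col14a1, a fibril-associated collagen, went from 792 to 515 CPM (ratio 0.650), and Col8a1, a short-chain collagen, from 992 to 556 CPM (ratio 0.560). In the 31 control and 40 ENZ fibroblasts that also had no vessel marker UMI, Col4a1 kept a ratio of 2.50 (1.95 to 3.23), at 155 and 388 CPM. With so few cells, the difference rests on the particular cells caught from 1 tumor each.

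Immune cells carried most members at a near constant fraction of their level in cancer cells. The Col3a1 level of immune cells was 132 CPM in the control tumor and 112 CPM in the ENZ tumor, which was 0.355 and 0.297 of its level in cancer cells. Col1a1 gave 0.345 and 0.311, Nid1 gave 0.304 and 0.270, and Sparc gave 0.352 and 0.268. Rhox5, which immune cells are not known to express, gave 0.381 and 0.290. In immune cells with an estimate from such genes, 56.5% of control and 34.6% of ENZ UMIs matched the profile of near-empty droplets, and 428 and 206 immune cells had a cancer marker sum of at least 5. Krt8 gave 0.463 and 0.299 and Krt18 gave 0.451 and 0.287, above Rhox5 in control cells. A fraction near that of Rhox5 was not read as expression by immune cells.

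Several members stood above that fraction. Fn1, which macrophages are known to make, had an immune cell level of 271 CPM in control and 433 CPM in ENZ, 0.759 and 1.19 of its level in cancer cells. Lamc1 gave 0.562 and 0.711. Nid2 gave 2.21 and 4.01, Col14a1 1.75 and 2.90 and Col15a1 1.26 and 1.70, each on under 200 UMIs per library. Col1a2 gave 0.530 and 1.11, on 416 and 214 UMIs, Bgn 0.561 and 0.615, Postn 0.682 and 0.552, and Col5a2 0.242 and 0.698, which was above Rhox5 in ENZ cells only. Once the profile of near-empty droplets was subtracted, Col1a2, Bgn, Postn and Col5a2 had too few UMIs left for a ratio of ENZ over control. The fractions of Col1a2, Bgn, Postn and Col5a2 were therefore not read as expression by immune cells. Among cells with at least 2 UMIs of Csf1r, the receptor that marks monocytes and macrophages, Fn1 stood at 357 CPM in control and 671 CPM in ENZ cells (ratio 1.88, 1.81 to 1.95). Among cells with at least 2 UMIs of Cd3e, Nkg7 and Ncr1, markers of T and NK cells, Fn1 stood at 99.7 and 72.1 CPM (ratio 0.724). Lamc1 went from 63.2 to 121 CPM in the same T and NK cells, a ratio of 1.92 (1.65 to 2.22). In the Csf1r cells Lamc1 had a ratio of 1.27 (1.13 to 1.41). In cells with at least 20 S100a8 UMIs it was 0.738 (0.450 to 1.16), and in the other immune cells 1.54 (1.43 to 1.66). Col14a1 had 70 of its 100 control and 62 of its 92 ENZ UMIs in the Csf1r cells. Nid2 had 85 UMIs in control and 29 in ENZ Csf1r cells, but 3 and 30 UMIs in T and NK cells, so its small total was made up differently in the tumors. The 2 libraries also differed in how much Rhox5 these cells carried, at 289 and 161 CPM in Csf1r cells and at 317 and 185 CPM in T and NK cells.

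Over all immune cells, 3 of 34 members were at least 1.5-fold higher in ENZ than in control, where 5.95% of all 15021 genes were, and 5 were lower, where 5.49% were. The higher ones were Fn1 (ratio 1.60, 1.55 to 1.64), Lamc1 (1.52, 1.44 to 1.60) and Col14a1 (1.54, on 100 and 92 UMIs). When cells could be in 2 classes, so that those meeting the fibroblast rule stayed among immune cells, the log2 ratio of Col14a1 turned to -0.69, Fn1 fell just inside the limit and Lamc1 was the single higher member. With median-of-ratios scaling Fn1 was the single one. Without mixed cells 9 of 32 were higher, where 7.67% of all genes were. The lower ones were Col8a1, Lama4, Fbn1, Postn and Bgn, and each had under 6 CPM. Without doublets 11 of 34 were lower, where 9.48% of all genes were. When cells could be in 2 classes it was 14 of 36, where 6.06% were. A single control cell, with 0 UMIs of Rhox5, held 70 of the 231 Bgn, 35 of the 100 Postn, 15 of the 46 Col8a1 and 8 of the 82 Fbn1 UMIs. Without this cell, left out after the data were seen, only Lama4 was lower, and another control cell held 21 of its 58 UMIs. The intervals of Bgn, Postn, Col8a1 and Fbn1 then all held 1, with ratios of 0.876, 0.775, 0.758 and 0.703. Sparc, at 255 and 172 CPM, had a ratio of 0.675, just inside the limit, and Rhox5 stood at 403 and 266 CPM beside it. After the profile of near-empty droplets was subtracted from the summed UMIs, Fn1 was at a ratio of 2.36 (2.26 to 2.46) and Lamc1 at 2.42 (2.21 to 2.65). More was subtracted from control than from ENZ cells, and Col14a1, Lamb1 and Nid1 had 0 UMIs left in the control and 54, 66 and 381 in the ENZ cells. These 3 genes kept at least 50 UMIs through the ENZ cells alone, so no direction was read for them. For the 5 lower members too few UMIs were left for a ratio.

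**Figure D5:**
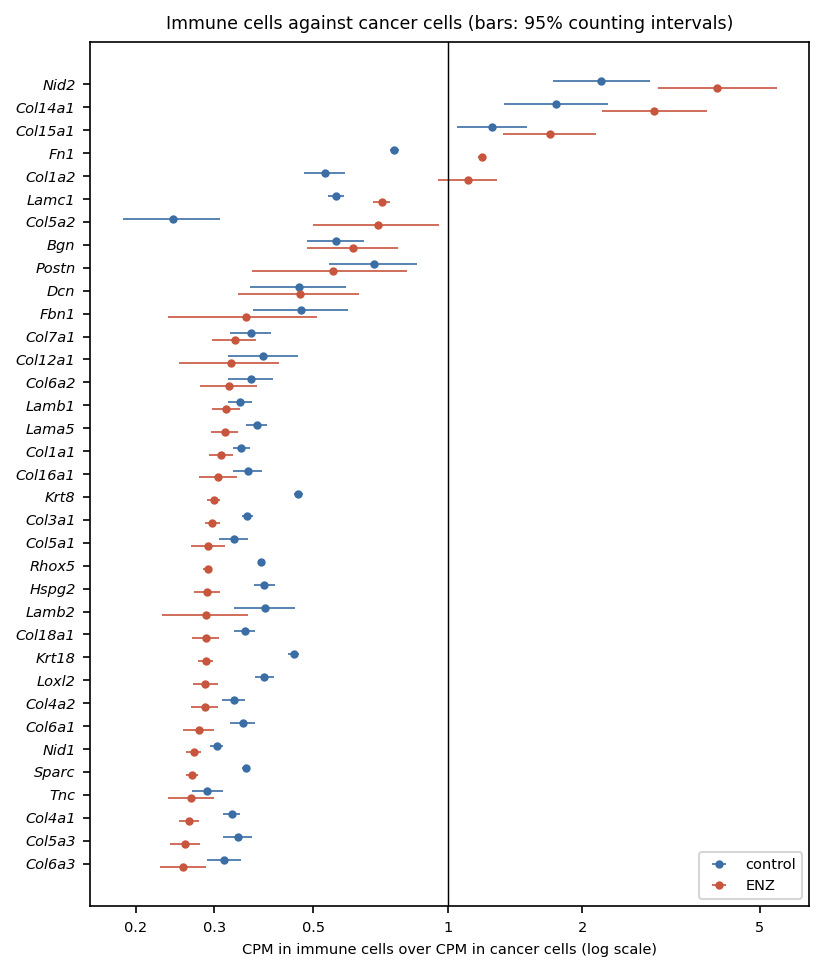
CPM in immune cells over CPM in cancer cells on a log axis, in the control (blue) and ENZ (red) library, for members with at least 25 UMIs in each class and for Rhox5, Krt8 and Krt18, with bars for 95% counting intervals. Most members lie beside Rhox5 at 0.381 and 0.290. Members to the right include Nid2, Col14a1, Col15a1, Fn1, Lamc1, Col1a2, Bgn and Postn. Krt8 and Krt18 lie at 0.463 and 0.451 in control and at 0.299 and 0.287 in ENZ.

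Related matrix genes outside the 38 were read from 8 fixed lists. In ENZ against control cancer cells, where 1.74% of all genes were higher and 5.41% lower, 5 of 18 genes for elastic fibers and glycoproteins with at least 50 UMIs were lower by the 1.5-fold limit. They were Mfap5, Fbln2, Eln, Mfap2 and Igfbp7, of which Igfbp7, a secreted binding protein of growth factors, was the most abundant at 28.8 CPM in control and 18.7 CPM in ENZ cells. Among cancer cells with at least 5 Rhox5 UMIs, 2 of 17 were lower, namely Mfap5 and Eln, where 5.02% of all genes were. Lower genes elsewhere were 2 of 16 other collagens (Col4a3 and Col11a2), 2 of 16 other proteoglycans (Prelp and Srgn) and 1 each of 10 genes for procollagen processing and crosslinking (Adamts2), 12 other laminin and basement membrane genes (Frem2) and 20 matrix receptors (Itga9). The single higher gene was Papln, of the basement membrane list. Among cells with at least 5 Rhox5 UMIs, 3 of 12 of that list were higher, with Lama2 and Ntn4 beside Papln, where 1.88% of all genes were. Over all cancer cells, neither the 17 genes for collagen folding, modification and secretion nor 13 matricellular genes had one past the limit. Among those with at least 5 Rhox5 UMIs, the matricellular gene Sparcl1 was higher, and Adamts2 was no longer lower by the limit.

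In fibroblasts, 3 of 15 other proteoglycans (Srgn, Prelp and Fmod) and 2 of 14 matricellular genes (Ccn3 and Tnn) were lower in ENZ, where 4.28% of all genes were. Ccn3 went from 189 to 35.4 CPM. In those with at most 1 Rhox5 UMI the counts were 4 of 14 (Fmod, Prelp, Podn and Srgn) and 3 of 14 (Thbs1, Ccn2 and Ccn3), where 6.78% were lower. Higher genes were 2 of 14 matrix receptors (Itga9 and Itga3), where 4.75% of all genes were, and Col27a1 and Fgf2, a growth factor held in the matrix, while Col8a2 and Ltbp2 were lower. In those with at most 1 Rhox5 UMI, the receptors Itga9 and Ddr2 and the collagen Col27a1 were higher, and Mfap4 and Ltbp2 were lower. Itga3, Fgf2 and Col8a2 were not among the genes past the limit there. The 17 genes for collagen folding again had none past the limit in all fibroblasts, but Plod1 was higher and P4ha1 lower in those with at most 1 Rhox5 UMI. In immune cells, 3 of 13 matricellular genes were lower, where 5.49% of all genes were, namely Ctsk, a collagen-degrading protease, Ccn1 and Sparcl1. Higher genes there were 2 of 21 matrix receptors, where 5.95% were, of which Itgb8, an integrin chain, went from 4.02 to 16.4 CPM. Npnt, Fgf2 and Vcan were also higher and Lamc3, Mfap5 and Aspn lower, and the other 3 lists had none past the limit.

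Several lists also had genes that were higher in the keratin-low than in the keratin-high tercile. Among other collagens 6 of 10 were higher in control and 5 of 10 in ENZ cells, and among elastic fiber genes 8 of 15 and 5 of 14. Among other proteoglycans 7 of 14 were higher and 1 lower in control cells, and 6 of 12 were higher in ENZ cells. For procollagen processing the counts were 6 of 10 and 4 of 10 higher with 1 lower in each library, and for other laminins 1 of 7 and 2 of 8 higher with 2 and 1 lower. Of the 17 genes for collagen folding, 3 were higher in either library, near the 20.2% of all genes in control and 14.7% in ENZ cells. They were P4ha3, a prolyl hydroxylase, P3h3 and Creb3l1, with ratios of 1.91, 1.93 and 2.49 in control cells. Among 14 further matricellular genes, 9 of the 12 with enough UMIs were higher in the keratin-low tercile of the control library and 7 of 12 were higher and 1 lower in the ENZ library. Over all genes, 20.2% in control and 14.7% in ENZ cells were higher, and 6.6% and 7.38% were lower. Among cells with at least 5 Rhox5 UMIs, 5 of 12 matricellular genes in control and 6 of 12 in ENZ cells were higher. Of all genes, 16.5% in control and 11.8% in ENZ cells were higher under that limit. Ccn1, a matricellular protein, stood at 125 CPM in the low and 57.4 CPM in the high tercile of the control library and at 133 and 43.1 CPM in the ENZ library. Among 21 matrix receptor genes, 8 of 19 were higher and 2 lower in the low tercile in control cells, and 6 of 19 were higher and 3 lower in ENZ cells, beside the same shares of all genes. The collagen receptor Itga1 stood at 49.5 and 8.27 CPM in control and at 61.7 and 9.02 CPM in ENZ cells. Itgb6, an epithelial integrin, went the other way, at 6.57 and 10.7 CPM in control and at 6.23 and 10.9 CPM in ENZ cells.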

How the data were processed

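The authors deposited UMI counts per gene and barcode, without normalization. The submitters' processing notes name Cell Ranger 2.1.1 and mm10, while the file headers give version 7.2.0. Whether intronic reads were counted is not given in the sources used here. Barcodes with at least 500 UMIs were kept. The marker rules for classes were set for this work and are not the study's, and fibroblasts and immune cells had at least 1000 UMIs. Cells that met the fibroblast and the cancer rule (69 control, 83 ENZ) were counted as fibroblasts, and those that met the fibroblast and the immune rule (17 and 4) were left out. Doublets were not removed in the main values. Scrublet scores at a limit of 0.25 marked 2.41% of control and 2.84% of ENZ cells, and the automatic limit for the control library, 0.648, marked 0.

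Counts were summed per class and library and divided by their total to give CPM, with exact Poisson intervals, and ratios have exact conditional binomial intervals (scipy 1.17.1). A member counted as past the limit had a ratio of at least 1.5, or of at most the inverse, with its interval on one side of 1, among genes with at least 50 UMIs over the classes compared. Each comparison was computed for all genes. Intervals cover counting error only. Ratios were tested on simulated counts. Any member with at least 50 UMIs in a comparison could be named, first those farthest from 1 by the nearer interval bound. Members and lists were chosen with earlier results of these data known, and the limits on Rhox5 and vessel marker UMIs were added after the data were seen. In cancer cells, the limit on vessel markers was applied together with a limit of under 3 UMIs of Dcn, Lum and Dpt together. The alternatives were other depth, mitochondrial, marker and count limits, other treatment of mixed cells, doublets and ambient RNA, other scalings, other keratin cuts and thinned cells. Sequences are from RefSeq.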

Additional observations from a re-analysis of the deposited data

Results flagged for a closer look

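Several members differed in opposite directions between ENZ and control in different cell classes, with both intervals off 1 and at least 1 of the values past 1.5-fold. The differences between classes were not tested. Col1a2 had a log2 ratio of -1.27 in cancer cells and 0.18 in fibroblasts, Col5a2 of -1.46 and 0.27, and Col15a1 of -0.64 and 0.50. All 3 genes had most of their keratin-low UMIs in cells poor in Rhox5, and in cancer cells with at least 5 Rhox5 UMIs the ratios were 0.753, 0.808 and 1.05. Between fibroblasts and immune cells, Col14a1 had log2 ratios of -0.31 and 0.63, Lama4 of 0.53 and -0.86, Fn1 of -0.064 and 0.67, and Fbn1 of 0.14 and -0.66. Of these, Lama4 and Fbn1 had 77 and 113 UMIs over the immune cells of both libraries, and Fn1 had 10643 in ENZ and 11195 in control immune cells.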

How the results depend on the processing

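No paired analysis was possible because a single library was made for each condition. Of 3229 member ratios recomputed under 18 alternatives listed at the start and 2 chosen after seeing the data (the limits on Rhox5 and on vessel markers), 96.4% kept their direction. This share includes alternatives that leave a class unchanged, such as the depth limits of cancer cells for fibroblasts and immune cells. For cancer cells and their terciles, the alternative without vessel markers also left out cells with at least 3 UMIs of Dcn, Lum and Dpt together. In fibroblasts, ENZ over control kept its direction for 21 of 33 members without mixed cells and 23 of 35 with at most 1 Rhox5 UMI. It was so for 22 of 32 when vessel markers were also left out, and for 23 of 32 in immune cells without mixed cells. Of the calls between keratin terciles, 22 of 26 in control and 23 of 25 in ENZ held wherever the alternative gave a value, which was in 15 to 20 of them for each member. Between ENZ and control, where 18 alternatives apply, this was so for Col5a3 and Col7a1 in cancer cells (18 values each), Col4a1, Col4a2 (18) and Col7a1 (13) in fibroblasts, and Col8a1 (15) and Postn (16) in immune cells, though both calls were lost without 1 control cell. All these numbers of alternatives include settings that leave the class unchanged. Where counts moved, the cause was not tested, and the share of all genes past the limit follows each count in brackets. Lower members in cancer cells (8 of 36) came to 2 of 37 with the rules as written (4.94%), 4 of 33 without mixed cells (4.03%), 1 of 36 with at least 5 Rhox5 UMIs (5.02%) and 1 of 35 without vessel markers (4.56%). Higher members in fibroblasts (5 of 37) came to 8 of 37 with the rules as written (6.504%), 3 of 33 without mixed cells (7.54%) and 2 of 35 with at most 1 Rhox5 UMI (6.94%). Lower members there (1 of 37) came to 3 of 33 without mixed cells (8.20%), 3 of 35 with at most 1 Rhox5 UMI (6.78%), 2 of 37 with the mean of cell CPM (7.49%) and with ambient RNA subtracted (7.67%), 2 of 32 without vessel markers (7.26%) and 0 of 34 with at least 200 UMIs (2.53%). Higher members in immune cells (3 of 34) came to 1 of 36 with the rules as written (5.95%), 1 of 34 with median-of-ratios scaling (4.90%), 9 of 32 without mixed cells (7.67%) and 5 of 7 with ambient RNA subtracted (14.99%), a count that supports no direction because Col14a1, Lamb1 and Nid1 had 0 control UMIs left and were kept through the ENZ cells alone. Lower members there (5 of 34) came to 12 of 36 with a fibroblast marker sum of at least 20 (5.71%), 14 of 36 with the rules as written (6.06%), 2 of 32 without mixed cells (5.53%), 11 of 34 without doublets (9.48%), 1 of 33 without 1 control cell, chosen after seeing the data (5.43%), 0 of 7 with ambient RNA subtracted (12.1%) and 1 of 27 with at least 200 UMIs (3.71%). Higher members in the control keratin-low tercile (26 of 35) came to 16 of 29 without vessel markers (14.2%). Lower members there (0 of 35) came to 1, Col5a3, with a cancer marker sum of at least 10, without mixed cells, with the mean of cell CPM, with median-of-ratios scaling, in thinned cells, and under each limit on Rhox5 and vessel markers, where 5.43% to 11.9% of all genes were lower. Reversals are listed only for members past the limit in the main values. Log2 ratios of ENZ over control that reversed among them were Col15a1 (0.066 with at least 5 Rhox5 UMIs, 0.68 without vessel markers), Col1a2 (0.31) and Col5a2 (0.39) without vessel markers and Postn (0.32 without mixed cells, 0.27 without vessel markers) in cancer cells, and Col14a1 (-0.69 with the rules as written) and Lama4 (0.013 with the mean of cell CPM) in immune cells. The Col1a2 log2 ratio of keratin-low over keratin-high control cells reversed to -0.27 without vessel markers. Depth limits Lama1, Col11a1, Lox, Nid2 and Lum, whose intervals are wide.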
